A study of Homo sapiens with 3 samples.

Results

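Integrins and focal adhesion genes were followed in 2 RNA libraries of the human melanoma line A375, which carries mutant BRAF. The members were chosen by name, not by their values: every gene symbol of an integrin alpha or beta subunit, and 16 genes of the adhesion complex on the inner side of the membrane (TLN1, TLN2, VCL, PXN, ZYX, FERMT1, FERMT2, ILK, PARVA, PARVB, LIMS1, PTK2, SRC, BCAR1, TNS1 and TNS3). This gave 42 of the 20344 genes in the files, of which 18 encode alpha subunits and 8 beta subunits. The series has 3 samples, and 1 of them, with the title A375-VR, DMSO, is not analysed here. The libraries titled A375, Prop and A375-VR, Prop are called the A375 library and the A375-VR library, and each group has 1 library.

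The labels contradict each other. By title and cell line label, the first library is from A375 and the other from A375-VR, a suffix the labels do not spell out, and both titles carry the word Prop. By the extraction protocol, all RNA came from A375-VR cells that had 24 h of either DMSO or propranolol at a dose of 20 µM. Propranolol blocks beta-adrenergic receptors, and the study's title sets it against resistance to vemurafenib, an inhibitor of mutant BRAF. Cell line, treatment, culture and library preparation therefore cannot be told apart, and with 1 library per group there was no replicate check and no test.

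Integrins are the receptors by which cells hold on to matrix. Each is a heterodimer of an alpha and a beta chain, and the pairing sets the ligand: collagen, laminin, proteins with an RGD sequence such as fibronectin and vitronectin, or cell-surface partners on other cells. Talins and kindlins bind the short tail of the beta chain inside the cell and switch the receptor on, and vinculin, paxillin, zyxin, tensins and the ILK complex join it to actin and to the kinases FAK and Src. In melanoma the integrin of alphaV and beta3 is best known as a mark of invasive growth.

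Values are FPKM, by definition fragments scaled to gene length and to the library total, so that levels can be compared between genes. The whole counts behind them are called reads here. A gene was kept when it reached 1 FPKM in at least 1 library, and it was called 2-fold apart when log2(FPKM + 1) differed by at least 1. Differences are those of log2(FPKM + 1), A375-VR minus A375, and ratios are of plain FPKM, A375-VR over A375. Ratio intervals are 95% exact Clopper-Pearson intervals on whole reads recovered from the FPKM, and cover counting error only. Their width depends on whether the mates of a read pair were counted once or each, which is not given. The recovered library totals were 17811339 (A375) and 16438482 (A375-VR).

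All the members called 2-fold apart were integrin subunits. Among the 29 members that passed, the A375-VR library had 5 at least 2-fold up on the A375 library and 0 down, against 3.14% and 0.613% of all 10761 genes past the filter. The 5 were ITGA1, ITGB3, ITGB8, ITGA9 and ITGA2. In such bulk libraries, more cells with a transcript and more of it per cell cannot be told apart. They are 5 of the 16 integrins past the filter, and 0 of the 13 adaptors and kinases were called. At the all-gene shares above, 0 of 13 is near the background, so it does not set the partners apart. In a wider list of other focal adhesion adaptors and kinases, 3 of 35 past the filter were called higher. The median difference was 0.51 for the 16 integrins and 0.04 for the 13 adaptors and kinases, beside 0.10 for all genes. After centring on the median ratio these medians were 0.42 and -0.06, and with the trimmed mean of log ratios 0.39 and -0.09, so the sign for the adaptors depends on the scaling. A difference above 0 was found in 20 of the 29 members, against 60.3% of all genes. Of the members past the filter, 27 reached 1 FPKM in both libraries, ITGA9 passed through the A375-VR library alone and ITGA7 through the A375 library alone, so the counts over the 29 describe them and are no support for a shift of the whole set. Without the filter 5 of 42 were higher, with a median of 0.12.

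**Figure D1:**
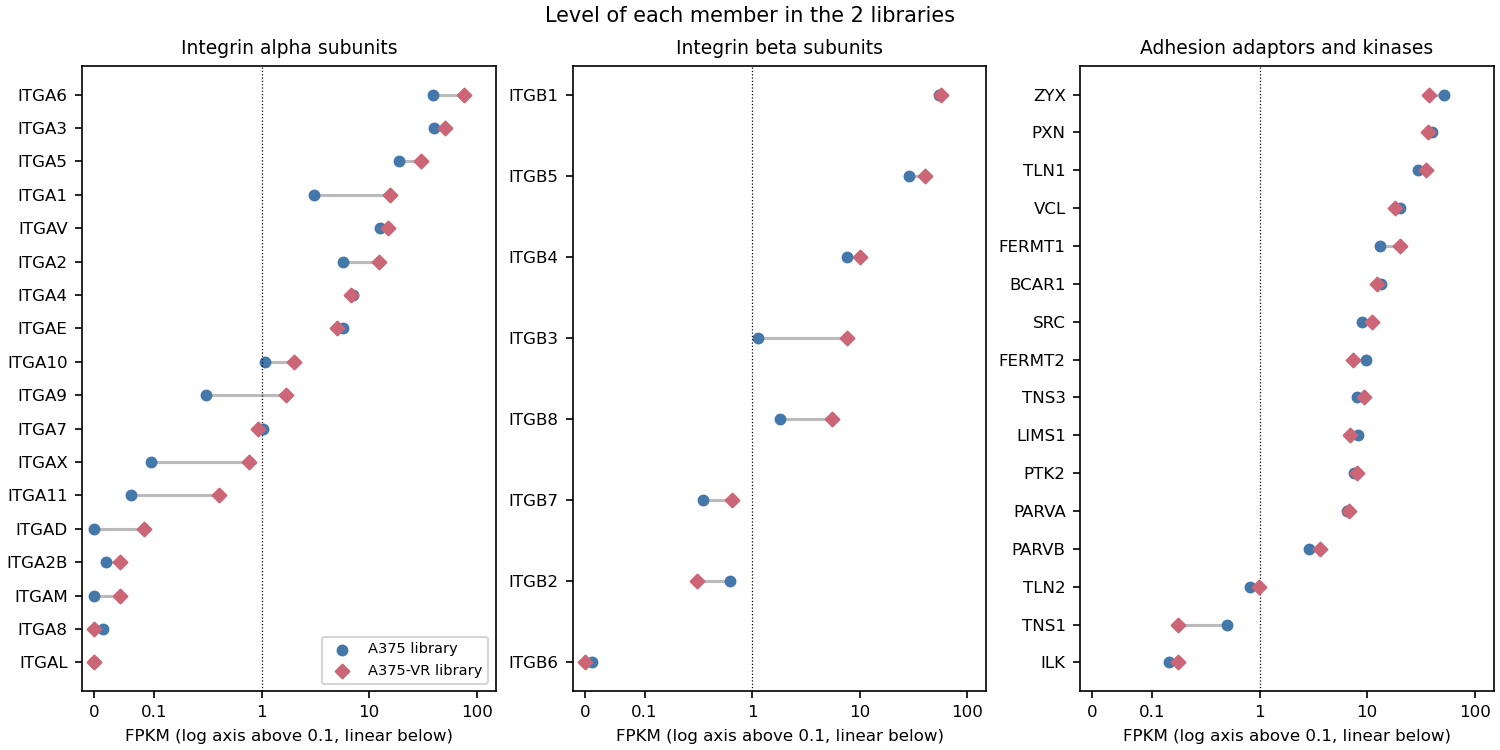
FPKM of each of the 42 members in the A375 library (circles) and the A375-VR library (diamonds), 1 library each, on an axis that is logarithmic above 0.1 and linear below; the dotted line marks 1 FPKM. ITGA1, ITGB3, ITGB8 and ITGA9 show the long gaps among members past the filter, while ITGB1 lies at 54.6 and 56.8 FPKM.

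The upstream sequence is shown for 3 of the 5 called integrins: the neighbours ITGA1 and ITGA2, which are the collagen receptors among them, and ITGB8. RefSeq windows on GRCh38.p14 matched 29 of the 42 members, and ITGB3 and ITGA9 are not among them. Each line gives the 250 bases before the annotated start, 5′ to 3′ on the gene's strand. Capitals mark the Sp1 box GGGCGG on either strand. The windows are chr5:52787666-52787915 for ITGA1, chr5:52989102-52989351 for ITGA2 and chr7:20330650-20330899 for ITGB8, all on the plus strand.
ITGA1: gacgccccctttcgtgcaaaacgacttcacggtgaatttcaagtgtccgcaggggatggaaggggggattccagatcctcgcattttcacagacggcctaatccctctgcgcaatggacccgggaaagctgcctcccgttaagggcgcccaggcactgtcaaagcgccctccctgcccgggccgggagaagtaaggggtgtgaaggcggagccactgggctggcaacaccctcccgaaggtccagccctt
ITGA2: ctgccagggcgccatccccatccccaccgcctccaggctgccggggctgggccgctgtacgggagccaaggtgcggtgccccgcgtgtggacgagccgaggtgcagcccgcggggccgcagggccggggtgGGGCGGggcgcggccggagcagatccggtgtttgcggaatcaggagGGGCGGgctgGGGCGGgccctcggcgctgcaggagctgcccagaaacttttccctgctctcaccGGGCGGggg
ITGB8: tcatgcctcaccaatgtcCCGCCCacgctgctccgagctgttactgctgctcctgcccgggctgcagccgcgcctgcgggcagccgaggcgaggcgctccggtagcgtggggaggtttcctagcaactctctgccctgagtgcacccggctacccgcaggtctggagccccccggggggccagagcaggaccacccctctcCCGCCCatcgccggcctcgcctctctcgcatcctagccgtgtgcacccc

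The GC content of these windows was 62.0% for ITGA1, 76.4% for ITGA2 and 71.2% for ITGB8, beside a median of 58.0% over 35116 windows of the same length. The Sp1 box occurred 4 times in ITGA2, at 119, 73, 63 and 9 bases before the start counted to the first base of the match. ITGB8 held it on the minus strand at 232 and 49 bases, and ITGA1 had no match. Of all windows 42.6% held the Sp1 box. Further motifs were searched on both strands: the AP-1 site TGANTCA (6.57% of all windows), the TEAD site GGAATG (11.9%), the E-box CACGTG of MITF and related factors (6.34%), the TATA box TATAAA (10.7%), the SOX site ACAAAG (13.7%) and the CArG box of SRF (1.16%). None of these letters were found in the 3 windows. None of the searched motifs overlapped another in the windows shown. A match is a description of letters and not of a bound site, and the motifs were chosen with the values known.

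Collagen receptors showed the widest gap of the alpha groups. ITGA1 (Entrez 3672), the alpha1 chain that pairs with beta1 and binds collagen and laminin, had 3.08 FPKM in the A375 and 15.8 in the A375-VR library, a ratio of 5.11 (4.77 to 5.47). Its difference of 2.04 was the 34th of 10761 genes in order from the most positive. Its locus on GRCh37, the build of all gene positions here, is the plus strand of chromosome 5 from 52083750 to 52255039. PELO, a ribosome rescue factor encoded inside it on the same strand, shares 499 exonic bases with it and had 16.9 and 21.2 FPKM. The part of these shared bases in the value of ITGA1 was not tested. ITGA2 (Entrez 3673), the alpha2 chain of the main platelet and epithelial collagen receptor, follows 30.1 kb downstream, at 52285170 to 52390609 on the plus strand. It had 5.66 and 12.4 FPKM, a ratio of 2.18 (2.00 to 2.38), and with a difference of 1.00 it was the last of the 338 genes called higher. That call was lost after centring on the median ratio (0.90) and with the trimmed mean of log ratios (0.87). ITGA10, a collagen-binding chain best known from cartilage, had 1.07 and 1.98 FPKM, a ratio of 1.84 (1.47 to 2.33). ITGA11, the fourth collagen-binding chain and best known from fibroblasts, stayed under the filter at 0.0620 and 0.403 FPKM. The summed level of these 4 chains was 9.88 FPKM in the A375 and 30.5 in the A375-VR library. All 4 had their higher value in the A375-VR library, and the order of ITGA1 and ITGA2 turned: ITGA1 was at 0.545 of ITGA2 in the A375 library and at 1.28 of it in the A375-VR library.

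Laminin receptors were the most abundant alpha chains in both libraries. ITGA6 (Entrez 3655), which pairs with beta1 and with beta4, spans 173292082 to 173371187 on the plus strand of chromosome 2. It had 39.5 and 76.5 FPKM, a ratio of 1.94 (1.87 to 2.01), and its difference of 0.94 was just short of the threshold. ITGA3 (Entrez 3675), the alpha3 chain that binds laminins of basement membranes, had 40.4 and 50.6 FPKM, a ratio of 1.25 (1.21 to 1.296). These chains were level in the A375 library, with ITGA6 at 0.978 of ITGA3, while in the A375-VR library ITGA6 stood at 1.51 of it. ITGA7, the laminin chain of muscle, had 1.02 and 0.935 FPKM, and its ratio of 0.915 (0.692 to 1.21) was not distinguishable from 1 with these reads. ITGB4, which pairs with alpha6 alone and anchors hemidesmosomes to keratin filaments, had 7.61 and 10.1 FPKM, a ratio of 1.32 (1.21 to 1.44).

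Among chains for RGD ligands, ITGA5 (Entrez 3678), the alpha chain of the classical fibronectin receptor, had 19.1 and 30.6 FPKM, a ratio of 1.60 (1.52 to 1.68). ITGAV (Entrez 3685), which pairs with 5 different beta chains, had 12.5 and 15.0 FPKM, a ratio of 1.20 (1.12 to 1.28). The alphaV chain thus differed little, and wide gaps were found in its partners ITGB3 and ITGB8. Its more abundant partners ITGB5 and ITGB1 had ratios of 1.42 and 1.04. ITGB3 (Entrez 3690), the beta chain of the vitronectin receptor, had 1.14 and 7.60 FPKM, from 89 and 549 recovered reads, a ratio of 6.68 (5.33 to 8.46). Its difference of 2.01 was the 37th from the top. Its locus is the plus strand of chromosome 17, from 45331193 to 45391109, and the annotation lists an unnamed coding gene that shares 33.2% of its exonic bases on the same strand. ITGB8 (Entrez 3696), the beta chain known for activating latent TGF-beta, had 1.83 and 5.49 FPKM, a ratio of 3.00 (2.59 to 3.48). Its locus is the plus strand of chromosome 7, from 20370325 to 20455377. ITGB5 (Entrez 3693), the most abundant of the alphaV partners besides beta1, had 28.6 and 40.6 FPKM, a ratio of 1.42 (1.36 to 1.49). ITGB6, the epithelial partner, rested on 1 read in the A375 and 0 in the A375-VR library, where 0 reads allow up to 0.0315 FPKM. The level of ITGB5 was 25.1 times that of ITGB3 in the A375 library and 5.35 times in the A375-VR library. ITGA8, a kidney-enriched RGD chain, had 1 and 0 reads, where 0 allows up to 0.0249 FPKM. ITGA2B, the platelet partner of beta3, had 2 and 4 reads, so beta3 had few transcripts of that partner beside it.

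ITGB1 (Entrez 3688), the beta chain with the most partners, was the most abundant beta chain in both libraries, with 54.6 and 56.8 FPKM, a ratio of 1.04 (1.00 to 1.08). Its difference of 0.06 was below the median of all genes and turned to -0.06 after centring on the median ratio and to -0.09 with the trimmed mean of log ratios. It lies on the minus strand of chromosome 10 (33176201 to 33294720). ITGA4 and ITGA9, related chains that bind fibronectin, VCAM1 and tenascin, went apart. ITGA4 had 7.14 and 6.76 FPKM, and its ratio of 0.947 (0.864 to 1.04) was not distinguishable from 1 with these reads. ITGA9 (Entrez 3680), on the plus strand of chromosome 3 from 37493606 to 37864998, had 45 and 230 recovered reads, or 0.305 and 1.69 FPKM, a ratio of 5.54 (4.01 to 7.80) and a difference of 1.04, which was 0.97 after centring and 0.95 with the trimmed mean. Exons of CERKL on the opposite strand cover 26.4% of the exonic bases of ITGA4, and whether strand was used in counting is not given in the sources used here.

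Chains of leukocyte integrins were under 1 FPKM in both libraries, with the exception of ITGAE. ITGAE, which pairs with beta7 and binds E-cadherin in lymphocytes, had 5.67 and 5.04 FPKM, a ratio of 0.890 (0.728 to 1.09) that was not distinguishable from 1 with these reads. The reads, 224 and 184, go with a recovered length of 2219 bases against 6602 annotated. They may be too few and the interval too wide, so whether it holds 1 is uncertain. Exons of HASPIN on the opposite strand, at 5.32 and 3.55 FPKM, cover 6.47% of the exonic bases of ITGAE. ITGB7, the partner of ITGAE, had 0.351 and 0.652 FPKM, with 42.3% of its exonic bases under exons of ZNF740 on the opposite strand. ITGB2, the beta chain of the leukocyte family, had 0.628 and 0.304 FPKM from 76 and 34 reads, a ratio of 0.485 (0.314 to 0.735). Its alpha partners are all encoded on chromosome 16. ITGAL was listed at 0 in both libraries, where 0 reads allow up to 0.0171 and 0.0185 FPKM. ITGAM had 0 and 1 recovered reads and ITGAD 0 and 6. ITGAX was the exception among them, with 0.0952 and 0.757 FPKM, a ratio of 7.95 (3.37 to 22.8) that rested on 6 and 44 reads. Of 14 leukocyte markers, 0 passed the filter and 7 were at 0 in both libraries, PTPRC among them, with a summed level of 0.807 and 2.31 FPKM. Of 8 platelet markers, 5 were at 0 in both libraries, PF4 and PPBP among them, and the sum was 0.343 and 1.44 FPKM, mostly from TUBB1 at 0.209 and 1.20. The part of such cells in the values of ITGAX and ITGB3 was not tested.

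The makeup of the integrin pool differed between the libraries. The alpha chains summed to 135.6 FPKM in the A375 and 218.5 in the A375-VR library, and the beta chains to 94.7 and 121.6. ITGB1 made up 57.6% of the beta sum in the A375 and 46.7% in the A375-VR library. ITGB3 made up 1.20% and 6.25%, and ITGB8 1.93% and 4.52%. In the alpha sum, ITGA6 made up 29.1% and 35.0%, ITGA3 29.8% and 23.2%, and ITGA1 2.28% and 7.21%. By level, ITGA1 was the eighth of the alpha chains in the A375 library and the fourth in the A375-VR library. Of 24 known heterodimers, 13 had both transcripts at 1 FPKM or more in the A375 and 13 in the A375-VR library, and 12 were shared. The beta1 dimer with alpha7 met this level in the A375 library alone, where ITGA7 lay just above it and its ratio was not distinguishable from 1. The beta1 dimer with alpha9 met it in the A375-VR library alone. These are transcript levels, and assembly at the surface was not measured.

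**Figure D2:**
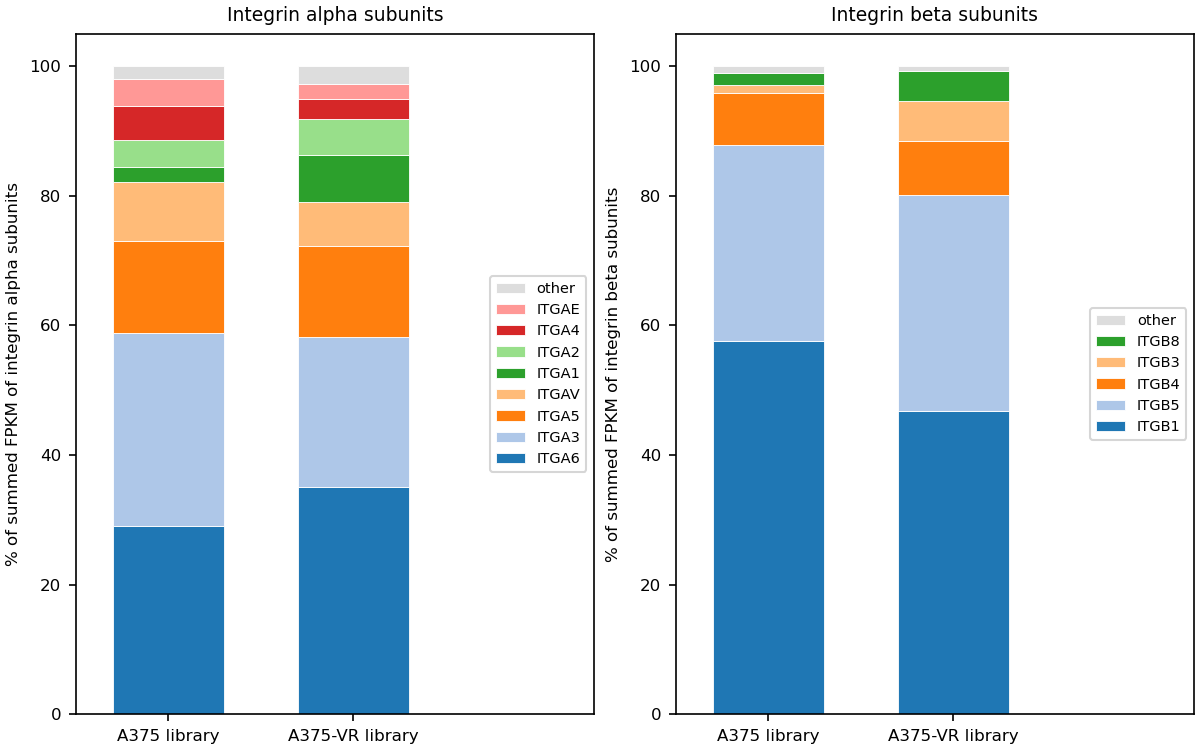
Share of each subunit in the summed FPKM of integrin alpha chains (left) and beta chains (right), in % of the sum, for the A375 and A375-VR libraries; subunits under 1% in both libraries are pooled as other. ITGB1 takes 57.6% and 46.7% of the beta sum, and ITGB3 and ITGB8 take larger shares in the A375-VR library.

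Of the 4 genes whose proteins switch integrins on, 3 passed the filter and 0 were called, beside 3.14% and 0.613% of all genes. At such shares 0 of 3 says little about them. The kindlins went in opposite directions. FERMT1 (Entrez 55612), kindlin-1, which is the form of epithelial cells, had 13.2 and 20.3 FPKM, a ratio of 1.545 (1.44 to 1.66). FERMT2 (Entrez 10979), kindlin-2, the widespread form, had 9.82 and 7.40 FPKM, a ratio of 0.754 (0.696 to 0.816). The ratio of FERMT1 to FERMT2 was 1.34 in the A375 and 2.75 in the A375-VR library. Both signs held under each pseudocount and scaling tried. TLN1, the main talin, had 29.7 and 35.1 FPKM, a ratio of 1.18 (1.12 to 1.25). TLN2, the talin of muscle and brain, stayed under the filter at 0.807 and 0.983 FPKM, and the ratio of TLN1 to TLN2 was 36.8 and 35.7.

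Of the adaptors that reach the actin cytoskeleton, ZYX, VCL and PXN were lower in the A375-VR library and TNS3 higher. ZYX (Entrez 7791), zyxin, which gathers at adhesions under tension, had 51.8 and 37.5 FPKM, a ratio of 0.724 (0.686 to 0.765), and at -0.45 had the most negative difference of the members past the filter. Its locus is the plus strand of chromosome 7, from 143078388 to 143088204. VCL, vinculin, which links talin to actin, had 20.4 and 18.1 FPKM, a ratio of 0.886 (0.844 to 0.931). PXN, paxillin, a scaffold of young adhesions, had 39.8 and 37.1 FPKM, a ratio of 0.932 (0.896 to 0.970). All 3 had differences below 0 under each pseudocount and scaling tried. Exons of AP3M1 on the opposite strand cover 11.1% of the exonic bases of VCL, and those of the antisense RNA PXN-AS1 23.7% of PXN. How reads over such shared bases were counted is not given, so the values of VCL and PXN are uncertain. TNS3, another tensin, had 7.96 and 9.34 FPKM, a ratio of 1.17 (1.10 to 1.26). TNS1, a tensin of long fibrillar adhesions, stayed under the filter at 0.493 and 0.176 FPKM, a ratio of 0.356 (0.250 to 0.498) from 143 and 47 reads.

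In the complex of ILK, PINCH and parvin, which bridges the beta tail and actin, LIMS1, or PINCH1, had 8.16 and 6.87 FPKM, a ratio of 0.842 (0.770 to 0.920). PARVA had 6.50 and 6.71 FPKM, and its ratio of 1.03 (0.959 to 1.11) was not distinguishable from 1 with these reads while its difference of 0.04 turned to -0.06 after centring and to -0.09 with the trimmed mean. PARVB had 2.88 and 3.65 FPKM, a ratio of 1.27 (1.10 to 1.46). ILK, the hub of this complex, was listed at only 0.145 and 0.175 FPKM, from 9 and 10 reads. Exons of TAF10 on the opposite strand cover 68.1% of the exonic bases of ILK, and TAF10, a subunit of the general transcription factor TFIID, was itself at 1.46 and 1.05 FPKM. The part of this overlap in both low values was not tested, so the level of ILK is uncertain.

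The signalling members lay close to 1. PTK2, the focal adhesion kinase FAK, had 7.52 and 8.07 FPKM, a ratio of 1.07 (0.978 to 1.18). Its annotated length is 2 times the recovered one, and with reads at that multiple, a setting chosen after seeing the data, the interval was 1.005 to 1.15, so whether it holds 1 depends on this choice. Its difference of 0.09 turned to -0.01 after centring and to -0.04 with the trimmed mean. SRC, the kinase that joins FAK at adhesions, had 9.03 and 11.0 FPKM, a ratio of 1.22 (1.12 to 1.33). BCAR1, or p130Cas, the scaffold that both phosphorylate, had 13.6 and 12.5 FPKM, a ratio of 0.918 (0.863 to 0.977). Over all members past the filter, the counting interval lay above 1 in 18 (19 with PTK2 at the multiple) and below 1 in 6, against 43.6% and 26.4% of all genes. The 6 below 1, at the smallest reads that fit, were all adaptors: ZYX, FERMT2, LIMS1, VCL, BCAR1 and PXN. For ITGAE, an integrin chain with a ratio of 0.890, the recovered length was 2219 bases against 6602 annotated. Whether its interval falls below 1 at more reads was not tested.

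**Figure D3:**
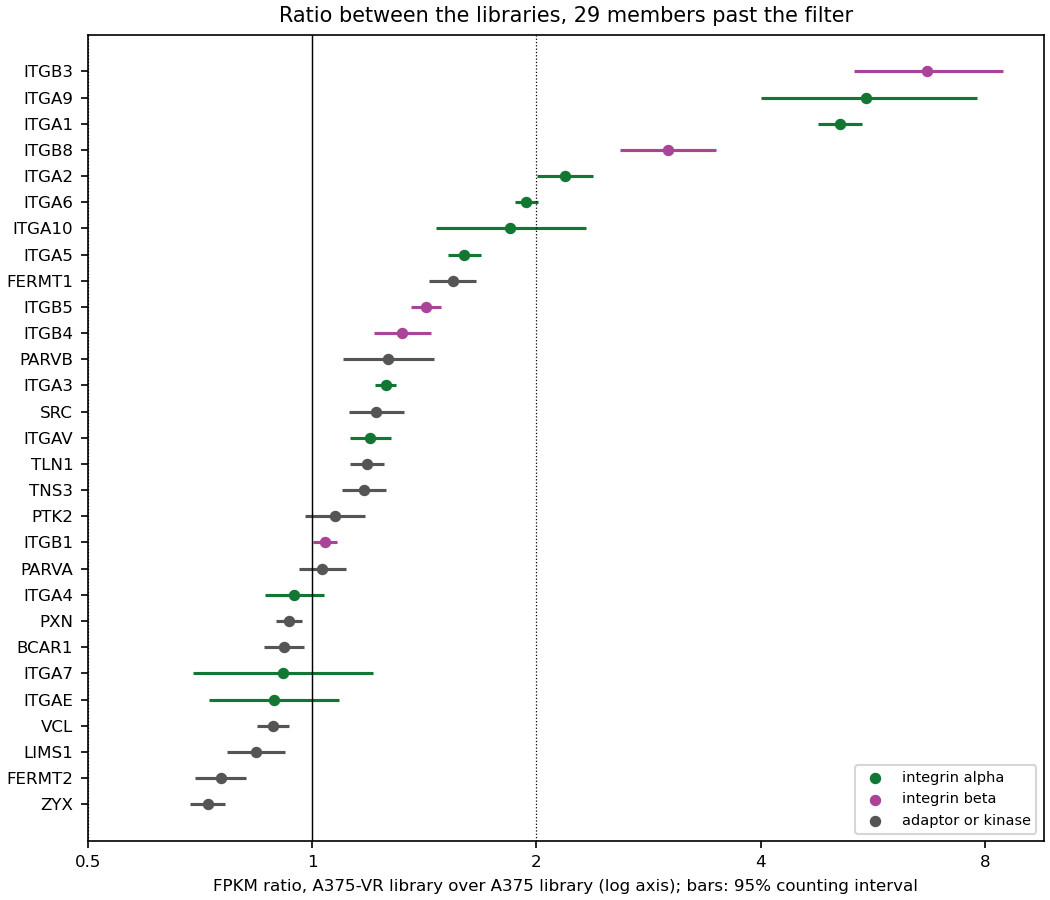
FPKM ratio of the A375-VR library over the A375 library on a log axis for the 29 members past the filter, with 95% counting intervals as bars and dotted lines at ratios of 0.5 and 2. ITGB3, ITGA9, ITGA1, ITGB8 and ITGA2 lie past 2, and ZYX at 0.724 is the lowest.

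**Figure D4:**
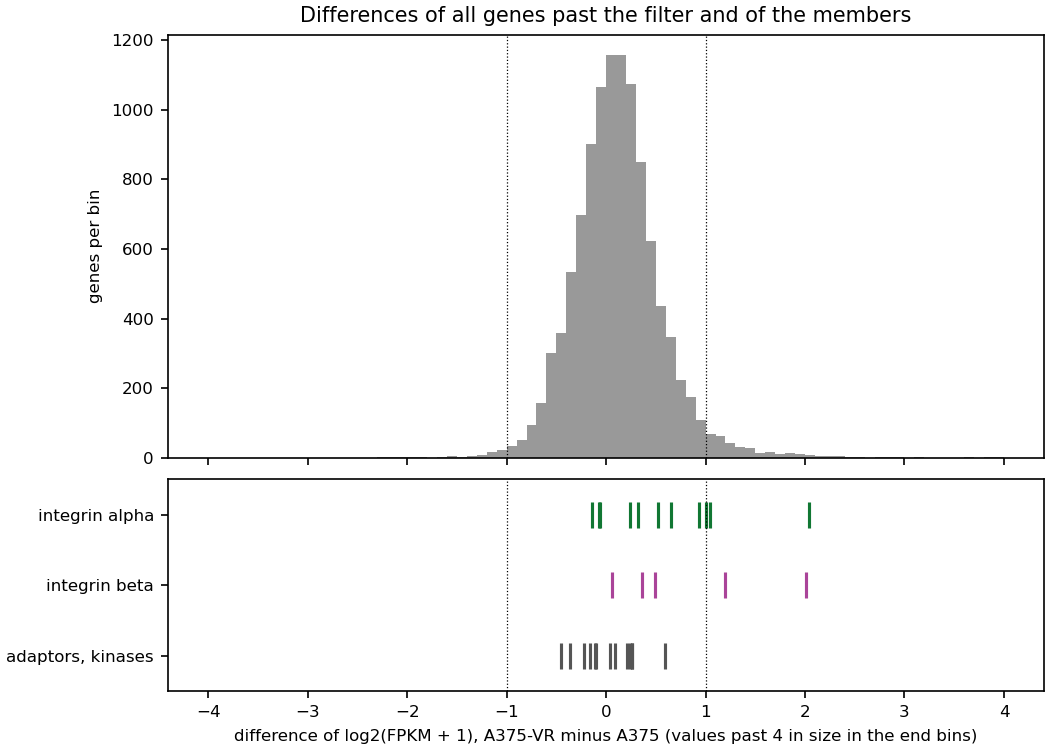
Number of genes per bin of the log2(FPKM + 1) difference, A375-VR minus A375, for all 10761 genes past the filter (top), and the 29 members as ticks by class (bottom); dotted lines mark a difference of 1 in size. The adaptors and kinases lie between -0.45 and 0.59, and the integrins reach 2.04.

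Genes around the members were taken from lists by role. Integrin ligands had a median difference of 0.52 over 25 genes past the filter, with 21 above 0, 5 at least 2-fold higher and 2 at least 2-fold lower, beside 60.3%, 3.14% and 0.613% of all genes. SPP1, osteopontin, an RGD ligand of alphaV dimers, had 9.55 and 46.3 FPKM, a ratio of 4.85 (4.35 to 5.42). LAMA4, a laminin chain of vessel basement membranes, had 3.64 and 10.05 FPKM. CYR61 and CTGF, secreted matrix proteins that bind integrins, went the other way, with 55.7 and 18.2 FPKM for CYR61 and 50.4 and 16.5 for CTGF. NOV, the third CCN protein of the list, differed from that pair in direction, with 10.7 and 23.4 FPKM, a ratio of 2.18 (1.96 to 2.43). THBS1, thrombospondin-1, the most abundant ligand of the list, had 157 and 78.5 FPKM, a ratio of 0.499 (0.488 to 0.510), and its difference of -0.99 fell just short of the threshold. NOV and THBS1 were chosen after their values were seen.

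Other focal adhesion adaptors and kinases had a median of 0.12 (0.01 after centring and -0.02 with the trimmed mean) over 35 genes past the filter. Of these, 3 were at least 2-fold higher and 0 lower, beside 3.14% and 0.613% of all genes. SORBS2, an adaptor of stress fibres, had 2.21 and 7.88 FPKM, a ratio of 3.58 (3.28 to 3.90). KANK1, which binds talin at the rim of adhesions, had 4.40 and 11.4 FPKM, a ratio of 2.60 (2.40 to 2.80). SVIL, supervillin, which binds myosin and actin at the membrane, had 2.45 and 6.08 FPKM. Integrin activation regulators, the small GTPase RAP1 and its partners, had a median of -0.0024 (0.02 after rescaling to a common sum, -0.11 after centring and -0.14 with the trimmed mean) over 15 genes, with 0 called in either direction. The widest of them, RAPGEF1, an exchange factor for RAP1, had 5.51 and 7.98 FPKM.

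Membrane partners of integrins had a median of 0.19 (0.09 after centring and 0.05 with the trimmed mean) over 26 genes. Of these, 2 were at least 2-fold higher and 0 lower, beside 3.14% and 0.613% of all genes. SDC3, a syndecan, had 2.52 and 7.70 FPKM, and KDR, a VEGF receptor, had 0.394 and 1.84. KDR is also in the endothelial marker list, of which 3 of 9 passed the filter, with a sum of 2.52 and 4.12 FPKM. The traffic list had a median of 0.14 (0.04 after centring and 0.0034 with the trimmed mean) over 23 genes. In it 0 were higher and 1 lower, beside the same shares of all genes. That gene was CAV1, caveolin-1, which had 281 and 77.7 FPKM. Hemidesmosome genes had a median of 0.12 (0.03 after centring and -0.0027 with the trimmed mean) over 6 genes, with 0 called, and the widest was LAMB3, a laminin-332 chain, with 4.18 and 6.36 FPKM.

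Genes of the actin side had medians below 0 in an actin list and an SRF list. These lists share genes, ACTB, ACTG1, TPM1, CNN2 and MYH9 among them, so their medians are not separate results. The actin and contractility list had a median of -0.20 (-0.32 after centring and -0.35 with the trimmed mean) over 34 genes. Of these, 23 were below 0 (39.7% of all genes were), 0 at least 2-fold higher and 1 lower (3.14% and 0.613% of all genes). That gene was TPM1, a tropomyosin, with 27.3 and 11.7 FPKM, a ratio of 0.428 (0.408 to 0.449). ACTB and ACTG1, the cytoplasmic actins, chosen after their values were seen, had 1236 and 696 FPKM and 1219 and 709. The SRF list holds targets of SRF and its cofactors, which follow the actin state, and also SRF, MRTFA and MRTFB themselves. It had a median of -0.17 (-0.27 after centring and -0.31 with the trimmed mean) over 29 genes. The genes of this list went both ways, with 17 below 0 and 12 above 0. CALD1 and EGR1 were among the latter, as were SRF, MRTFA and MRTFB. At least 2-fold higher were 0 and lower 4, beside 3.14% and 0.613% of all genes. The 4 were ANKRD1, CYR61, CTGF and TPM1. ANKRD1, a nuclear ankyrin-repeat protein, had 6.92 and 1.17 FPKM. CYR61, CTGF and THBS1 of the SRF list are also in the ligand list. The members in the SRF list went both ways, with ITGA5 and TLN1 above 0 and ZYX and VCL below 0.

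**Figure D5:**
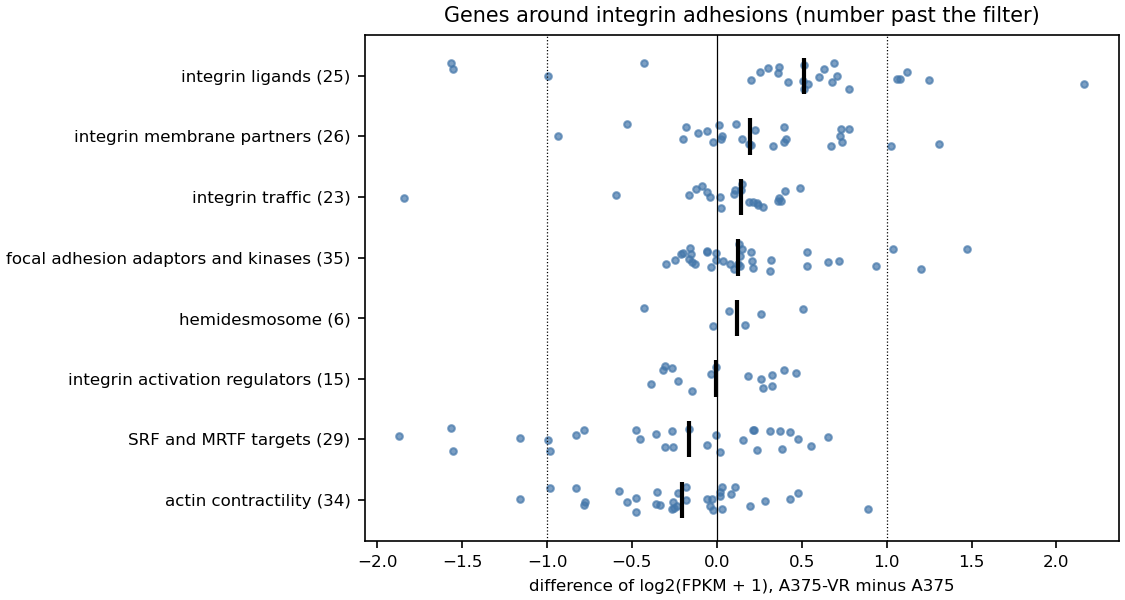
Difference of log2(FPKM + 1), A375-VR minus A375, for each gene past the filter in the 8 lists around integrin adhesions, with a bar at the list's median and the number of genes in brackets; vertical scatter is for legibility only. The ligand list has its median at 0.52, and the actin list at -0.20.

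Melanoma markers were checked beside these values. SOX10, a neural crest factor, MCAM and CSPG4, surface markers of melanoma, were at 65.3, 42.6 and 22.5 FPKM in the A375 library and at 150, 46.2 and 39.2 in the A375-VR library. The pigment genes TYR, MLANA, PMEL, DCT and TYRP1 were under 1 FPKM in both, and TYR was listed at 0. Of 15 melanocyte and melanoma markers, with sums of 170.7 and 340.02 FPKM, 8 passed the filter. Of these 8, 4 were called higher in the A375-VR library and 0 lower, beside 3.14% and 0.613% of all genes. The 1 marker of the 8 that was lower there was MITF, the melanocyte lineage factor, chosen after its values were seen, with 6.47 and 3.47 FPKM, a ratio of 0.537 (0.476 to 0.605). Of 9 fibroblast markers 2 passed, with sums of 4.90 and 7.09 FPKM, and of 9 keratinocyte markers 3, with sums of 48.6 and 60.7 FPKM that were mostly KRT10 at 44.9 and 56.0. The part of other cells in the collagen receptor and FERMT1 values was not tested.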

How the data were processed

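Poly(A) RNA was measured in 3 samples of melanoma cells, of which 2 libraries were used, grouped by title. Per the series design text, paired 150 bp reads of stranded libraries were mapped to GRCh37 by TopHat 1.3.3. How reads were counted, on which annotation and with which strand setting, is not given in the sources used here. FPKM was computed and deposited by the authors, with 1 value per gene and zeros kept. Since FPKM shares 1 scale per library, abundant genes that differ shift all others.

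From these, differences of log2(FPKM + 1) were taken, with a filter at 1 FPKM in at least 1 library. Members were set by a rule on gene names, and both that rule and the lists were chosen with earlier results of these data known. All 42 members are given. From each list around them, genes 2-fold apart were named, at most the 4 widest, or the single widest where none was. Some called genes are given by count only.

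Whole reads were recovered within a relative tolerance of 1e-09. The ratio of the totals follows from 274 genes with equal reads in both libraries, and the common factor was the one of 12 under which the largest share of 1480 gene lengths equalled exon lengths of GENCODE release 44. This share was 14.7%, against 9.26% or less under the other factors, and the median length was 0.999 of the annotated one. All reads and intervals rest on this factor. Reads are the smallest that fit. For ITGB8, PTK2, ITGA11, ITGAX and ITGAM the annotated length is a whole multiple of the recovered one within 0.2%, so their reads may be multiples and their intervals too wide. Other members had recovered lengths well under the annotated ones without such an exact multiple. Among them were TLN1 with 5038 against 9927 bases, FERMT1 with 5359 against 10236 and ITGAE with 2219 against 6602. Their reads may likewise be too few and their intervals too wide, which was not tested. Limits for 0 reads are 3 reads over the annotated exon length. Steps were tested on simulated data (Python 3.11.15, numpy 2.4.6, pandas 2.3.3, scipy 1.17.1).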

Additional observations from a re-analysis of the deposited data

How the results depend on the processing

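With 1 library per group, no result has a replicate check. No paired analysis was possible because each group has 1 library. A pseudocount of 0.1, rescaling to a common sum, a filter at FPKM 5 and plain ratios left the count of members at least 2-fold higher at 5 or 4, and 0 members were lower under any alternative. The count was 3 after centring on the median ratio and 3 with the trimmed mean of log ratios, where ITGA9 and ITGA2 lay under the threshold and ITGA1, ITGB3 and ITGB8 stayed past it. These scalings shift all genes by 0.11 and 0.15. The members' median difference of 0.24 became 0.13 after centring, 0.10 with the trimmed mean and 0.12 without the filter. Over the pseudocount and scaling alternatives 26 of 29 members had the same sign throughout, and ITGB1, PARVA and PTK2 did not. Without the 7 members that share exons with another coding gene, an alternative chosen after seeing the data, 3 of 22 were higher, since ITGA1 and ITGB3 are among the 7. Depth limits ITGA2B, ITGA8, ITGAD, ITGAM, ITGB6 and ITGAL, which rest on under 10 reads in each library.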
